A study of Mus musculus with 12 samples.

Results

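Blood left in a dissected brain carries its own RNA into the sequencing library. The genes described here were the adult haemoglobin chains Hba-a1, Hba-a2, Hbb-bs and Hbb-bt and the erythroid haem synthesis enzyme Alas2, followed in every library as a readout of that blood. They were taken by name: the versioned gene identifiers of the count tables were looked up in GENCODE vM21, and all 5 names were found among the 55536 genes. The libraries were bulk mRNA libraries of dissected cerebellum and cerebral cortex from 1-month-old WT and Snx14-KO mice, 3 mice per genotype, so that 12 libraries fell into 4 groups of 3. Snx14-KO mice were homozygous, in every cell of the body, for a Cas9-induced frameshift deletion of a single base pair in Snx14, which encodes a sorting nexin of the endoplasmic reticulum. The mutation was kept as a single line on the C57BL/6J background, and WT animals without it were the controls. The sample names give a mouse number within each genotype, so cerebellum and cortex with the same number came from the same mouse, whereas WT and KO mice shared only numbers. Tissue was dissected on ice and frozen, and whether the animals used for RNA were perfused to clear the vessels is not given in the sources used here.

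Haemoglobin is a tetramer of alpha and beta chains, each of which holds a haem group that binds oxygen. Adult mouse red cells take their alpha chains from the neighbouring genes Hba-a1 and Hba-a2 and, in strains related to C57BL/6, their beta chains from Hbb-bs and Hbb-bt. Alas2 catalyses the first step of haem synthesis in erythroid cells, where other cells use Alas1. Young red cells, the reticulocytes, have lost their nucleus but still hold these mRNAs, and low levels of haemoglobin mRNA have also been described in neurons and glia. In bulk tissue, fewer cells of a type and less RNA per cell cannot be told apart.

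Libraries held between 16672589 and 19887427 counts on genes. The library labels were checked first with the targeted gene. Snx14 fell by 2.57 on the log2 scale in KO cerebellum (SE 0.0792, adjusted p = 1.69e-06) and by 2.80 in KO cortex (SE 0.0951, adjusted p = 3.19e-08, both from edgeR quasi-likelihood fits, Benjamini-Hochberg adjusted). In WT mice all 12 cerebellar marker genes were called lower in cortex than in cerebellum and 11 of 12 cortical marker genes were called higher; the remaining cortical marker, Nptx1, was called lower.

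The members lie in 3 places of the mouse genome (GRCm38, GENCODE vM21). Hba-a1 spans chr11:32283511-32284465 and Hba-a2 spans chr11:32296489-32297298, both on the plus strand. Hbb-bs spans chr7:103826534-103828096 and Hbb-bt spans chr7:103812524-103813996, both on the minus strand. Alas2 spans chrX:150547375-150570638 on the plus strand. The coding sequences of the alpha genes, 426 bases each, differ at 1 base, and those of the beta genes, 441 bases each, also differ at 1 base, an identity of 99.77% in both pairs. The last bases of the 4 coding sequences, read from the GENCODE transcripts, are shown because they hold the only coding difference within each pair, which is in capitals (C381T from Hba-a1 to Hba-a2 and C417T from Hbb-bs to Hbb-bt, counted from 1 at the A of the start codon).
Hba-a1, coding bases 341 to 426: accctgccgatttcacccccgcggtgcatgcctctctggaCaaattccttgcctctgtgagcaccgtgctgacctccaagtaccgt
Hba-a2, coding bases 341 to 426: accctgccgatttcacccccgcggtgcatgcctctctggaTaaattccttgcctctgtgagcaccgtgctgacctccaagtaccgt
Hbb-bs, coding bases 377 to 441: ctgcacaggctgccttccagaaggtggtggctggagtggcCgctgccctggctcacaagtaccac
Hbb-bt, coding bases 377 to 441: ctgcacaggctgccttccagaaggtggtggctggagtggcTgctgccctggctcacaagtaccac

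This near-identity bears on every level given below, because read pairs that align equally well to both copies were not counted. Of all 150-base windows in the main transcript, 48.4% in Hba-a1 and 65.7% in Hba-a2 occur unchanged in the partner gene, as do 58.7% in Hbb-bs and 50.7% in Hbb-bt. No such window of Alas2 occurs in another member. The deposited counts of the chains therefore rest on the copy-specific part of each transcript, and the split between copies is uncertain. The exons of the 4 chains overlap no other annotated exon, whereas 372 exon bases of Alas2 (15.5%) are shared with exons of Apex2, a DNA repair gene on the opposite strand, and of a microRNA gene. Counting was not stated to use strand, and pairs were assigned to every gene they overlapped. Apex2 itself had 52 to 106 counts per library.

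The alpha pair is as alike upstream as in its coding part, whereas the beta pair is not. Promoter sequences were taken from RefSeq (GRCm38.p6, 250 bases before each annotated start). The longest run shared by the alpha genes covers 247 upstream bases, which is nearly the whole window, whereas the longest run shared by the beta genes is 14 bases. Short matches to 4 motifs known from globin promoters were searched on both strands: the TATAA box, the CCAAT box, the CACCC box and the GATAA motif of GATA factors, none of which contains another. All 4 chains hold all 4 motifs. Alas2 holds a TATAA match, a CACCC match and a GATAA match but no CCAAT match in this window. Among 32851 promoter windows of the same table, 22.8% hold the TATAA box, 33.8% the CCAAT box, 52% the CACCC box and 22.6% the GATAA motif. The proximal stretches are shown because they carry the CACCC and CCAAT matches, which are in capitals together with TATAA (positions count back from the RefSeq start).
Hba-a2, chr11:32296372-32296488, plus strand: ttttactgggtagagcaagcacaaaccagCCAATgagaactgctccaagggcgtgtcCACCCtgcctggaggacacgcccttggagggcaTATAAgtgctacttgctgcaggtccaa
Hbb-bs, chr7:103827996-103828025, minus strand: agagccaCACCCtggtaagggCCAATctgc
Hbb-bt, chr7:103813990-103814019, minus strand: agggtaaCACCCtggcATTGGCCAATctgc
In Hbb-bt the capitals also cover a reverse-strand CCAAT match next to the forward match, which Hbb-bs does not have there.

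Every member was detected in every library, and their order was fixed. Per transcript length, in TPM, the order was Hbb-bs, Hba-a1, Hbb-bt, Hba-a2 and Alas2 in 12 of 12 libraries. In WT cerebellum the mean TPM was 657 ± 303 for Hbb-bs, 270 ± 107 for Hba-a1, 143 ± 72.3 for Hbb-bt, 101 ± 36.7 for Hba-a2 and 8.17 ± 4.53 for Alas2 (SD, n = 3). The neighbours Hbb-bt and Hba-a2 lay within their spread of each other in that group. Among all genes ranked by TPM, Hbb-bs held rank 99 to 544 in the cerebellum libraries and rank 431 to 1207 in those of cortex. Alas2 stood far lower, at rank 9938 to 15013 and rank 13406 to 20082, respectively. The 4 chains together took 0.00591% to 0.0419% of all gene counts.

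The remaining levels are CPM on a TMM scale shared by the 12 libraries, which compares libraries for the same gene. Hbb-bs, the most abundant beta chain, had 89.1, 233 and 138 CPM in cerebellum of WT mice 1 to 3 and 67.1, 165 and 90.5 CPM in cerebellum of KO mice 1 to 3. In cortex the same mice had 47.7, 84.6 and 68.3 CPM (WT) and 44.8, 36.4 and 56.5 CPM (KO). In both tissues WT mouse 2 was highest and the genotypes overlapped, while every cortex lay below the cerebellum of its mouse.

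Hbb-bt, the less abundant beta chain, had 19.5, 49.0 and 23.2 CPM in WT cerebellum and 14.6, 31.0 and 14.6 CPM in KO cerebellum. It had 7.17, 13.9 and 9.90 CPM in WT cortex and 7.56, 6.31 and 9.42 CPM in KO cortex. The order of mice followed that of Hbb-bs closely, with WT mouse 2 again highest in both tissues and KO mouse 2 second in cerebellum but lowest in cortex.

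Hba-a1, the more abundant alpha chain, had 43.9, 97.0 and 58.8 CPM in WT cerebellum and 26.4, 86.6 and 37.3 CPM in KO cerebellum. Its cortex values were 14.4, 26.6 and 26.8 CPM in WT and 14.0, 15.9 and 20.1 CPM in KO. Here WT mouse 3 was marginally above WT mouse 2 in cortex, the only case in which WT mouse 2 was not the highest library of its tissue. Hba-a2, the less abundant alpha chain, had 12.2, 26.8 and 21.9 CPM in WT cerebellum and 8.46, 20.3 and 8.40 CPM in KO cerebellum. In cortex it had 3.29, 5.91 and 4.90 CPM in WT and 3.13, 2.63 and 4.47 CPM in KO. The cerebellar value of WT mouse 3 was higher relative to WT mouse 2 for Hba-a2 than for the other chains.

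Alas2, which makes the haem precursor, was the scarcest member. It had 3.39, 9.87 and 4.67 CPM in WT cerebellum and 2.87, 5.51 and 2.82 CPM in KO cerebellum. In cortex it had 1.81, 4.19 and 2.22 CPM in WT and 0.50, 1.04 and 2.03 CPM in KO. The lowest of these, cortex of KO mouse 1, rested on 8 counts, and the highest, cerebellum of WT mouse 2, on 171 counts. The spread over the 6 cortex libraries, 8.37-fold from lowest to highest, was wider than for any chain in that tissue (1.91-fold to 2.33-fold).

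**Figure D1:**
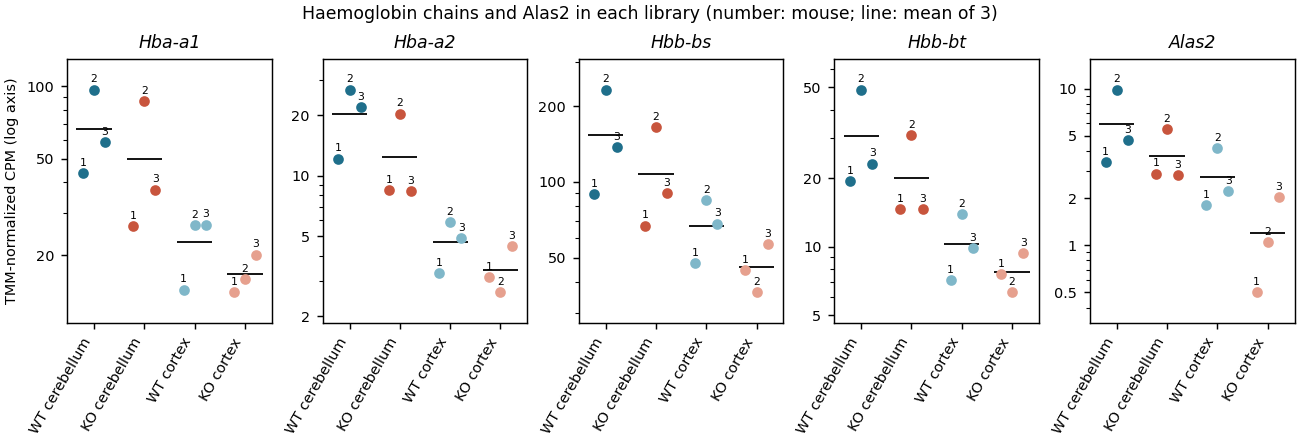
TMM-normalized CPM (log axis) of each member in the 12 libraries, by group; numbers are mice and lines are means of 3. WT mouse 2 was highest in cerebellum for 5 of 5 members and in cortex for 4 of 5, and WT and KO libraries overlapped in every panel.

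The first comparison the design implies is that of the genotypes within a tissue. In cerebellum, Snx14-KO libraries averaged below WT for all members, the libraries of the genotypes overlapped, and no member was called. The mean CPM was 153 ± 73.0 in WT and 108 ± 51.3 in KO for Hbb-bs, and 30.5 ± 16.1 and 20.1 ± 9.46 for Hbb-bt (SD, n = 3 per group). For the alpha chains it was 66.6 ± 27.4 and 50.1 ± 32.1 for Hba-a1, and 20.3 ± 7.45 and 12.4 ± 6.88 for Hba-a2. Alas2 averaged 5.98 ± 3.43 CPM in WT and 3.73 ± 1.54 CPM in KO.

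The fitted log2 fold changes in cerebellum were −0.50 for Hbb-bs (SE 0.376), −0.59 for Hbb-bt (SE 0.382), −0.40 for Hba-a1 (SE 0.415), −0.70 for Hba-a2 (SE 0.377) and −0.67 for Alas2 (SE 0.411). Adjusted p lay between 0.729 (Hba-a2) and 0.911 (Hba-a1) in the edgeR quasi-likelihood fit (Benjamini-Hochberg adjusted over 18201 genes). A call required an adjusted p below 0.05 together with a log2 fold change beyond 0.5 in either direction, and it was made for 0 of 5 members against 0.00549% of all genes tested. It was also 0 of 5 at an unadjusted p under 0.05, which 8.15% of genes passed, and 0 of 5 by DESeq2, which called 0.901% of genes. The 95% intervals of the log2 fold change all included 0 and were wide, from −1.34 to 0.35 for Hbb-bs and from −1.55 to 0.15 for Hba-a2, so neither equal levels nor a level reduced to less than 50% could be set apart at this number of mice.

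The cerebellar difference depended on which mouse was included. Without the cerebellum of WT mouse 2 the log2 fold changes were −0.03 for Hba-a1, −0.07 for Hbb-bs, −0.08 for Hbb-bt and −0.10 for Alas2. Hba-a2 was −0.45 there. Without the cerebellum of KO mouse 2 they reached −1.06 for Hba-a1, −1.26 for Hba-a2, −0.95 for Hbb-bs, −1.06 for Hbb-bt and −1.06 for Alas2. No member was called in either case, where 10 of 18723 genes were called without the WT library and 254 of 18649 without the KO library. No member had every KO library below every WT library, an arrangement that 6.32% of genes showed.

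In cortex the fold changes of the 4 chains had smaller SEs than in cerebellum, and Snx14-KO libraries again averaged below WT without a call. The mean CPM was 66.9 ± 18.5 in WT and 45.9 ± 10.1 in KO for Hbb-bs, 10.3 ± 3.39 and 7.76 ± 1.56 for Hbb-bt, 22.6 ± 7.08 and 16.7 ± 3.11 for Hba-a1, and 4.70 ± 1.32 and 3.41 ± 0.951 for Hba-a2 (SD, n = 3). For Alas2 it was 2.74 ± 1.27 and 1.19 ± 0.774. The fitted log2 fold changes were −0.54 for Hbb-bs (SE 0.186), −0.41 for Hbb-bt (SE 0.228), −0.44 for Hba-a1 (SE 0.211), −0.46 for Hba-a2 (SE 0.263) and −1.20 for Alas2 (SE 0.447).

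The adjusted p was 0.996 for each of these members in the edgeR quasi-likelihood fit (Benjamini-Hochberg adjusted over 18255 genes). The count of members called was 0 of 5 by edgeR, against 0.00548% of genes, and 0 of 5 by DESeq2, against 0.0493%. At an unadjusted p under 0.05, 2 of 5 members passed, Hbb-bs and Alas2, where 4.5% of genes did. Single mice moved these values too. Without the cortex of WT mouse 2 the log2 fold changes were −0.30 for Hba-a1, −0.26 for Hba-a2, −0.34 for Hbb-bs, −0.14 for Hbb-bt and −0.75 for Alas2. Without the cortex of KO mouse 3 Alas2 was at −1.80 and Hba-a2 at −0.71, and without that of WT mouse 1 Hba-a1 was at −0.68 and Hbb-bt at −0.62. No member was called with any single cortex library left out. No member had KO and WT libraries that did not overlap, an arrangement with KO lower that 4.67% of genes showed. When genes with few counts were kept in the fit, 31561 genes in all, both Hbb-bs (adjusted p = 3.19e-07) and Alas2 (adjusted p = 0.0226) passed edgeR's quasi-likelihood test, with nearly unchanged log2 fold changes of −0.55 and −1.20, where that fit called 0.472% of genes. The SEs of that fit were smaller on the same 6 libraries, 0.0876 against 0.186 for Hbb-bs and 0.314 against 0.447 for Alas2. The members rose and fell together over the libraries, so their 5 negative signs in each tissue are not independent observations.

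The second comparison is that of the tissues, and here the members differed beyond the spread between mice. In WT mice the log2 fold change of cortex against cerebellum was −1.56 for Hba-a1 (SE 0.387, adjusted p = 0.00322), −2.11 for Hba-a2 (SE 0.370, adjusted p = 0.000209), −1.20 for Hbb-bs (SE 0.346, adjusted p = 0.00880) and −1.56 for Hbb-bt (SE 0.364, adjusted p = 0.00207), in the edgeR quasi-likelihood fit (Benjamini-Hochberg adjusted over 19380 genes). These 4 members fell, where 39.9% of all genes were called in either direction and 18.7% were called lower in cortex. Alas2 had a log2 fold change of −1.12 (SE 0.464), with an adjusted p of 0.0531 in the same edgeR fit. With the mouse as a block, which uses the pairing of the tissues, Alas2 was called as well (−1.08, adjusted p = 0.0171).

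In KO mice the log2 fold changes were −1.58 for Hba-a1 (SE 0.397), −1.86 for Hba-a2 (SE 0.386), −1.23 for Hbb-bs (SE 0.351), −1.37 for Hbb-bt (SE 0.376) and −1.64 for Alas2 (SE 0.516). The adjusted p ranged from 0.000905 (Hba-a2) to 0.0153 (Alas2) in edgeR's quasi-likelihood test, and all 5 members fell, where 38% of genes were called and 18.2% were called lower. The libraries of the tissues did not overlap for 4 of 5 members in WT, the exception being Alas2, and for 5 of 5 in KO. Non-overlap with cortex lower was common in this comparison, at 31.1% of genes in WT and 29.5% in KO. The median log2 fold change over all genes was −0.02 in both genotypes, against −1.56 and −1.58 over the members.

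**Figure D2:**
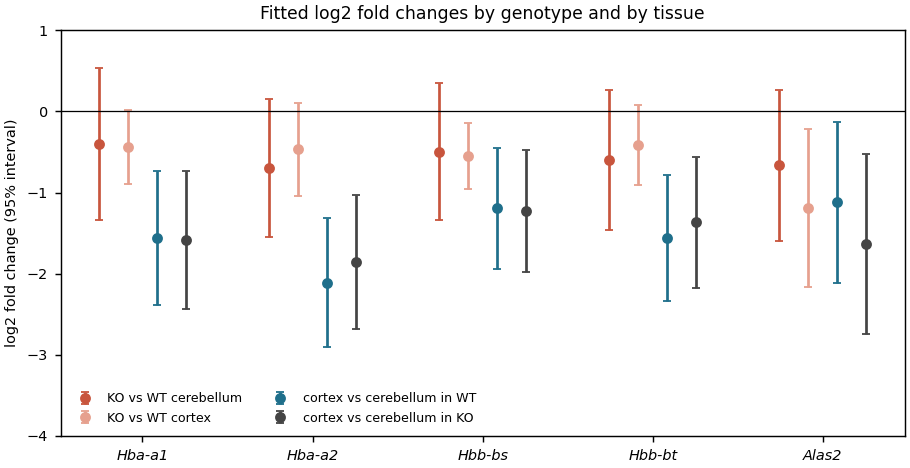
Fitted log2 fold changes of the 5 members with 95% intervals, by genotype within each tissue and by tissue within each genotype. The 10 tissue intervals lie below 0, whereas 8 of the 10 genotype intervals include 0, the exceptions being Hbb-bs and Alas2 in cortex.

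Single libraries bore on these calls as well. In WT, Hbb-bs was not called without the cerebellum of WT mouse 2 (−0.76, adjusted p = 0.0678 by edgeR). In KO, leaving out the cerebellum of KO mouse 2 reduced the number of members called from 5 to 3. Hbb-bs was then at −0.78 (adjusted p = 0.0574 by edgeR) and Alas2 at −1.25 (adjusted p = 0.0700 by edgeR). Hba-a1 was still called there but moved from −1.58 to −0.93. Alas2 was also not called in KO without the cortex of KO mouse 1 (−1.28, adjusted p = 0.0653 by edgeR). The direction was the same in all of these fits.

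Within mice the direction was uniform. The summed level of the 4 chains was 165, 405 and 241 CPM in cerebellum of WT mice 1 to 3 and 72.5, 131 and 110 CPM in their cortex. In KO mice it was 117, 303 and 151 CPM in cerebellum and 69.5, 61.2 and 90.5 CPM in cortex. Cerebellum thus stood above cortex by 2.27-fold, 3.10-fold and 2.20-fold in the WT mice and by 1.68-fold, 4.95-fold and 1.67-fold in the KO mice. Over single members the same ratio ranged from 1.39-fold for Alas2 in KO mouse 3 to 7.73-fold for Hba-a2 in KO mouse 2, and it was above 1 for every member in 6 of 6 mice.

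The tissues of a mouse did not always rank alike. WT mouse 2 had the highest summed chains in both tissues. KO mouse 2, in contrast, had the second highest cerebellum of the 6 and the lowest cortex of the 6. The KO to WT ratio of the group means of the sum was 0.703 in cerebellum and 0.706 in cortex. Over single libraries left out it ranged from 0.494 to 0.937 in cerebellum and from 0.612 to 0.808 in cortex.

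**Figure D3:**
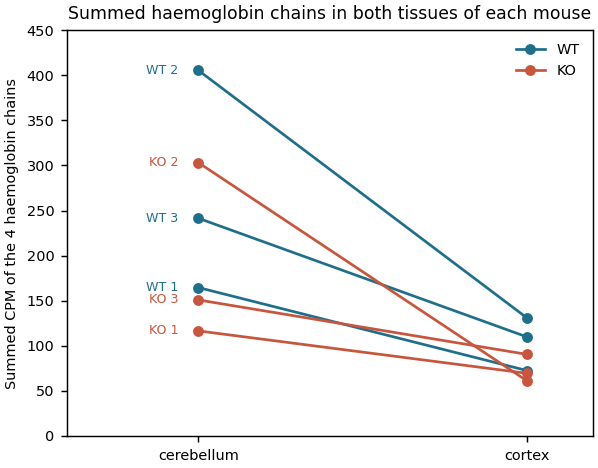
Summed CPM of Hba-a1, Hba-a2, Hbb-bs and Hbb-bt in cerebellum and cortex, with a line for each of the 6 mice. All 6 lines go down, from 117 to 405 CPM in cerebellum to 61.2 to 131 CPM in cortex, and KO mouse 2 goes from the second highest cerebellum to the lowest cortex.

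The genotype effect was also compared between the tissues. The difference of the log2 fold changes, cortex minus cerebellum, was −0.02 for Hba-a1 (SE 0.546), 0.25 for Hba-a2 (SE 0.532), −0.03 for Hbb-bs (SE 0.487), 0.19 for Hbb-bt (SE 0.520) and −0.52 for Alas2 (SE 0.692). No member was called, with an adjusted p of 1.00 for each in the edgeR quasi-likelihood fit, which called 0% of genes, and 0 of 5 had an unadjusted p under 0.05, which 5.68% of genes had. DESeq2 also called 0 of 5, and 0.186% of genes. The 95% intervals were wide, for example −1.19 to 1.15 for Hba-a1, so a difference between tissues in either direction was not detectable at this number of mice.

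The proportions among the chains were not the same in the tissues of a mouse. The ratio of summed alpha to summed beta TPM was 0.418 to 0.529 in the 6 cerebellum libraries and 0.314 to 0.418 in the 6 cortex libraries, and it was higher in cerebellum in 6 of 6 mice. Hba-a2 made up 18.4% to 27.1% of the alpha counts in cerebellum and 14.2% to 18.6% in cortex, again higher in cerebellum in 6 of 6 mice. In KO mouse 3 that difference was small, 18.4% (95% Wilson interval 15.9 to 21.1) against 18.2% (14.8 to 22.2). Hbb-bt made up 13.9% to 17.9% of the beta counts in cerebellum and 12.7% to 14.8% in cortex, and was higher in cerebellum in 5 of 6 mice. These ratios come from copy-specific reads and were not tested, and the intervals cover counting error only.

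The proportion of Alas2 to the chains ranged more widely in cortex than in cerebellum. There were 18.2 to 24.6 Alas2 counts per 1000 chain counts over the 6 cerebellum libraries. Over the 6 cortex libraries there were 7.20 to 32.0, the lowest being KO mouse 1 and the highest WT mouse 2. The proportion was higher in cerebellum than in cortex in 2 of 6 mice, so it showed no common direction.

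**Figure D4:**
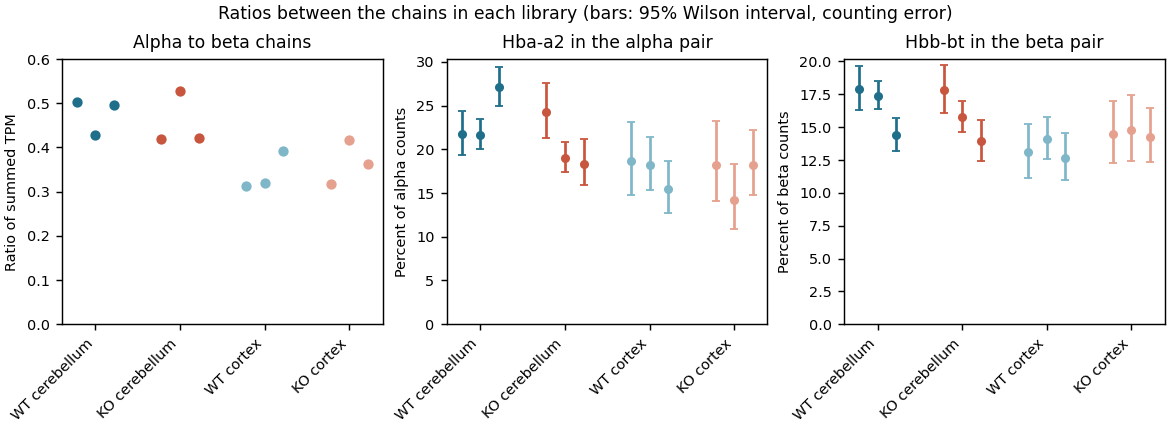
Ratio of summed alpha to beta TPM, percent of alpha counts from Hba-a2 and percent of beta counts from Hbb-bt in each of the 12 libraries; bars are 95% Wilson intervals of counting error. The cerebellum libraries span 0.418 to 0.529 in the alpha to beta ratio and the cortex libraries 0.314 to 0.418.

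Other globins were scarce or had an order of their own. The embryonic chains Hbb-bh1, Hbb-bh2, Hbb-bh0 and Hba-x had 0 counts in all libraries, which allows up to 3 counts per library, and embryonic Hbb-y had 3 counts in 1 library only. The theta-like genes Hbq1a and Hbq1b reached at most 15 and 7 counts. Cygb, a globin of fibroblasts and some neurons, had 819 to 1943 counts and was called lower in cortex (log2 fold change −0.80 in WT and −0.75 in KO, adjusted p = 6.08e-07 and 1.33e-06 by edgeR). Ngb, the globin of neurons, went the other way and was called higher in cortex, at 75 to 93 counts. In cerebellum Ngb had 1, 2 and 3 counts in WT and 40, 9 and 44 counts in KO, and it did not pass the filter for the test of genotype there. The names Hbb-b1 and Hbb-b2 found no gene in this annotation.

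Most genes that mark erythroid cells stood near 0. The erythroid transcription factor Gata1 had at most 1 count in any library, and the membrane genes Epb42 and Rhag had at most 3, while Cldn13 had 0 throughout. Slc4a1, the anion exchanger of the red cell membrane, had 14, 17 and 16 counts in WT cerebellum and 6, 6 and 19 in KO cerebellum, against 1 to 3 in every cortex library. It was called lower in cortex in WT (log2 fold change −3.84, SE 0.678, adjusted p = 0.000223 by edgeR) and in KO (−2.15, SE 0.635, adjusted p = 0.0105 by edgeR). Its highest count was in cerebellum of KO mouse 3, which for the chains was among the lower cerebellum libraries. Of the 21 genes in the reticulocyte and erythroid list, 20 were found, Ahsp being the exception, and 10 passed the filter over all 12 libraries. Of these 10, 7 were lower and 3 higher in cortex in each genotype. In WT 1 was called lower and 1 higher, and in KO 2 were called lower and 1 higher. Over all genes 18.7% were called lower in WT and 18.2% in KO. The summed level of the list was almost flat, at 405 to 444 CPM in cerebellum and 384 to 425 CPM in cortex. It was made up mainly of Bnip3l, Mkrn1 and Bpgm, which brain cells express themselves.

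The other genes of haem synthesis differed little between the groups. All 10 of this list were tested, from Alas1, the enzyme of non-erythroid cells, to Fech, which inserts the iron. Between genotypes 0 of 10 were called in either tissue, with median log2 fold changes of −0.03 in cerebellum and −0.04 in cortex. Between tissues 1 of 10 was called in each genotype, Alad, lower in cortex (−0.58 in WT and −0.69 in KO). Most of the list lay on the same side as Alas2 there. In WT 8 of 10 were lower in cortex (median log2 fold change −0.12) and in KO 7 of 10 (median −0.13). In either direction, 5 of 10 in WT and 4 of 10 in KO had an unadjusted p under 0.05. That threshold was widely passed between tissues. Alas2, which passed it in both genotypes, ranked only 10893 of 19380 genes in WT and 8659 of 19380 in KO in the edgeR quasi-likelihood fit. These counts therefore do not set the list apart from other genes. The summed level of the list was 316 to 361 CPM in cerebellum and 309 to 334 CPM in cortex, a far narrower range than that of the chains. Of the 8 genes for removal of haem and haemoglobin, 7 were tested between genotypes in cerebellum and 6 in cortex, and 0 were called. In cerebellum 4 had positive and 3 negative log2 fold changes, with a median of 0.064. Hmox1, which breaks down haem, had a log2 fold change of 0.58 in KO cerebellum (SE 0.246, adjusted p = 0.574 by edgeR) and Cd163, the macrophage receptor for haemoglobin, of 1.03 (SE 0.371, adjusted p = 0.474 by edgeR).

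Markers of other blood cells and of vessels were set beside the chains, library by library. The 10 neutrophil genes summed to 2.95 to 3.69 CPM in WT cerebellum and 5.45 to 12.8 CPM in KO cerebellum, the reverse of the direction of the chains. The 4 of them that were tested had a median log2 fold change of 1.60 with 0 called, and 4 of 4 had an unadjusted p under 0.05. Defining neutrophil genes were scarce, with at most 45 counts of S100a8 and of Ngp in any library, both in KO cerebellum 2. In cortex the neutrophil sums were 5.29 to 6.38 CPM in WT and 4.75 to 8.23 CPM in KO. Between tissues in KO, 3 of the 5 tested were called lower in cortex (S100a8, S100a9 and Ngp, median of the 5 −1.53), the same side as the chains, whereas in WT 1 of 5 was called, Csf3r, higher in cortex (median 0.34). The platelet chemokine genes Pf4 and Ppbp had at most 24 and 4 counts, and nearly all of the platelet list's sum came from Gp1bb, which was called higher in cortex (log2 fold change 1.55 in WT). Of the 10 lymphocyte genes the most abundant were Ighm and Trbc2, both called higher in cortex (3.51 and 8.14 in WT), and the T cell receptor transcript Trbc2 had at most 5 counts in any cerebellum library. The lymphocyte list summed to 4.06 to 5.25 CPM in WT cerebellum and 5.93 to 9.42 CPM in KO cerebellum, above WT where the chains averaged below it. Ighm, its only gene tested there, had a log2 fold change of 0.62 (adjusted p = 0.533 by edgeR) and an unadjusted p under 0.05. The 12 microglia and macrophage genes all had positive log2 fold changes in KO cerebellum (median 0.99, 9 at an unadjusted p under 0.05, 0 called) and mixed signs in KO cortex (8 of 12 positive, median 0.09, 0 called). In cerebellum they summed to 190, 213 and 449 CPM in KO mice 1 to 3 against 148, 195 and 151 CPM in WT, so KO mouse 3 stood apart. Between tissues 11 of 12 of these genes were higher in cortex in WT and 8 of 12 in KO, opposite to the chains. Called higher were 10 of 12 in WT and 4 of 12 in KO, where 39.9% and 38% of all genes were called in either direction. The other genes were lower in cortex, among them Lyz2 in both genotypes.

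The 12 endothelial genes summed to 265 to 302 CPM in WT cerebellum and 279 to 351 CPM in KO cerebellum. In cortex they summed to 206 to 245 CPM in WT and 239 to 290 CPM in KO. Between genotypes 10 of 12 had a positive log2 fold change in cerebellum (median 0.15) and 12 of 12 in cortex (median 0.26), with 0 called in either. The chains had negative fold changes in the same comparisons. Between tissues 11 of 12 endothelial genes were lower in cortex in WT and 9 of 12 in KO, the side of the chains. Their median log2 fold changes of cortex against cerebellum, −0.41 in WT and −0.23 in KO, were smaller in size than those of the chains. Of the 12, 2 were called lower in WT and 1 in KO, where 18.7% and 18.2% of all genes were called lower. The 8 genes of mural cells, which wrap the vessels, summed to 144 to 192 CPM in WT cerebellum and 207 to 221 CPM in KO cerebellum, with 6 of 8 positive, a median log2 fold change of 0.17 and 0 called. In cortex they summed to 116 to 164 CPM in WT and 163 to 174 CPM in KO, with 7 of 8 positive, a median of 0.19 and 0 called. Between tissues 7 of 8 mural genes were lower in cortex in WT (median log2 fold change −0.38) and 6 of 8 in KO (median −0.24). Of the 8, 2 were called lower in WT and 1 in KO, against the same 18.7% and 18.2% of all genes.

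Tissue that borders the dissection varied as well. The 8 choroid plexus genes, led by Ttr, summed to 82.0, 2740 and 7425 CPM in cerebellum of WT mice 1 to 3 and to 2039, 3205 and 972 CPM in that of KO mice 1 to 3. In cortex they summed to 9.87 to 142 CPM. The range over the cerebellum libraries was 90.5-fold, against 3.48-fold for the summed chains, and the library with the most chains, WT mouse 2, was not the library with the most choroid plexus. The 12 meningeal fibroblast genes summed to 183 to 362 CPM in WT cerebellum and 498 to 530 CPM in KO cerebellum, and 10 of 12 had an unadjusted p under 0.05 there with 0 called. They summed to 114 to 167 CPM in WT cortex and to 157, 426 and 147 CPM in cortex of KO mice 1 to 3. KO mouse 2 stood apart there, with the other KO libraries inside the WT range, and it was also the cortex library with the lowest summed chains (61.2 CPM). Between tissues 10 of 12 meningeal genes were lower in cortex in WT and 12 of 12 in KO. Of them, 5 were called lower in WT and 7 in KO, where 18.7% and 18.2% of all genes were called lower. All 8 choroid plexus genes were called lower in cortex in both genotypes. The part of vessels, meninges and choroid plexus in the haemoglobin values was not tested.

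**Figure D5:**
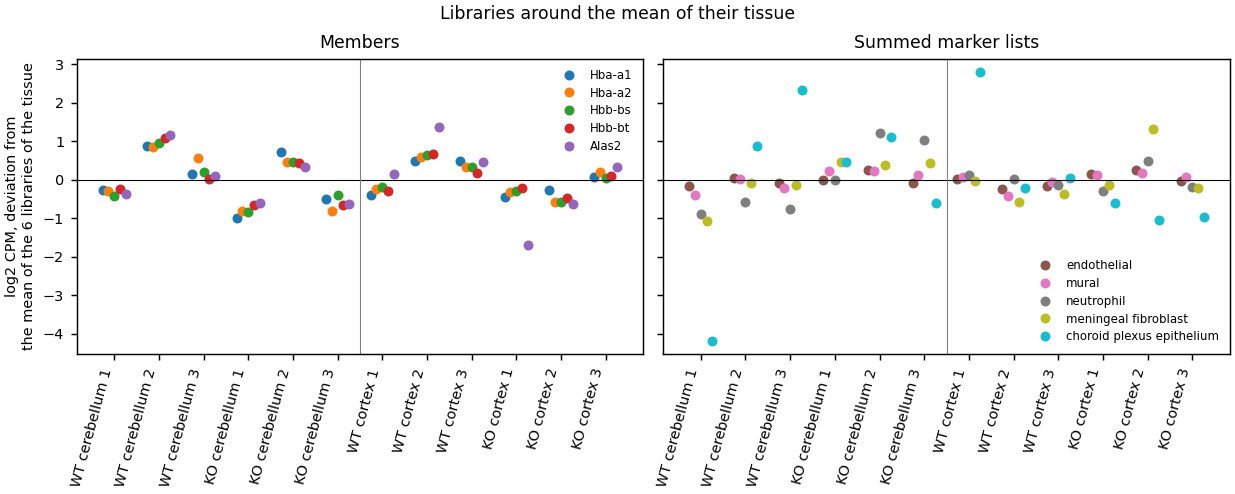
Each point is a library's log2 CPM minus the mean of the 6 libraries of its tissue, for the 5 members (left) and for the summed CPM of 5 marker lists (right). The members lie close together in each library except Alas2 in some cortex libraries, whereas the marker lists follow other orders and choroid plexus spans 90.5-fold in cerebellum.

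As a description of how closely the members varied together, log2(CPM + 1) of every gene was centred within tissue and compared with that of the summed chains over the 12 libraries. The chains are themselves part of that sum, so their Pearson r of 0.957 (Hba-a2) to 0.996 (Hbb-bs) says little. Alas2, which is not part of it, had an r of 0.890 and stood at rank 6 of 19380 genes. The 10 genes outside the members with the highest r were Gm16701 (0.920), Stag2 (0.875), Arl6 (0.871), Sec61g (0.868), Gm20681 (0.867), Pdcl (0.863), Gtf2a1 (0.862), Zfp933 (0.858), B3galt2 (0.850) and Ube2q2 (0.846). Their amplitude was small. The centred values had an SD of 0.505 to 0.566 for the members and of at most 0.275 for these 10 genes. The 12 libraries come from 6 mice, no p is given for these values of r, and 7 of the 10 were also among the 10 highest by Spearman's rho.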

How the data were processed

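The authors aligned read pairs to the mouse genome GRCm38 with STAR and deposited, for each library, a raw count per feature from featureCounts 2.0.1 (per the file headers), with pairs counted as fragments, chimeric pairs left out and a pair counted for every gene it overlapped. No strand option was stated, although the study's methods call the libraries strand specific, and multi-mapped reads were not counted. Each table held 81881 features. The 55536 mouse genes were used, and 26248 numbered features (0.0506% to 0.0632% as many counts as the genes) and 97 spike-ins without counts were left out. Gene counts per library were 16672589 to 19887427.

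Counts were tested with edgeR 4.0.16 (quasi-likelihood, TMM, filterByExpr; R 4.3.3) over all genes that passed the filter, with Benjamini-Hochberg adjustment over all of them. Genotypes were compared within the 6 libraries of a tissue, and tissues and the difference of the genotype effect in a fit of all 12 libraries. A gene was called at an adjusted p under 0.05 and, except for the difference of effects, an absolute log2 fold change above 0.5, the thresholds of the study. All 5 members passed the filter in every fit. CPM used a single TMM scaling of the 12 libraries, and TPM used the deposited exon lengths. The sum over the chains and the ratios between them were described without a test. The 10 genes most like the summed chains were named by Pearson's r. The scripts were tested on simulated data. Alternatives were DESeq2 1.42.0, RLE normalization, no filter, all 12 libraries in each genotype fit, a replicate block, leaving out each library and, added after the values were seen, leaving out both libraries of WT mouse 2 and single libraries for the summed chains.

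The members and gene lists were chosen with earlier results of these data known. Replicates were separate mice. Same-numbered cerebellum and cortex of a genotype came from the same mouse by their labels, and their deviations from the group means correlated at 0.0731 to 0.159 in WT and 0.0178 to 0.338 in KO.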

Additional observations from a re-analysis of the deposited data

How the results depend on the processing

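The 5 members kept a negative log2 fold change in KO against WT, in both tissues, and in cortex against cerebellum, in both genotypes, under every alternative run. The number of members called moved with a few settings. Without a filter on low counts, 2 members were called in KO cortex against 0 with the filter (the cause was not tested). The number called for cortex against cerebellum was 3 to 5 in WT and 3 to 5 in KO with single libraries left out. The number called in KO cerebellum was 0 throughout. The counts over all genes moved far more than those of the members. In cerebellum 1 gene was called by edgeR, 164 by DESeq2, 347 without a filter and 45 with all 12 libraries in the fit. In cortex the numbers were 1, 9, 149 and 2. For the difference of the genotype effect between tissues they were 0 by edgeR, 36 by DESeq2 and 418 without a filter. Without the cerebellum of KO mouse 2, edgeR called 254 genes in cerebellum and 257 for the difference of effects, and without that of WT mouse 2 it called 10 in cerebellum.

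That difference of effects changed sign among the fits for the 4 chains, for Hba-a2 only barely (−0.0038), and stayed negative for Alas2. With the replicate block it was 0.10 for Hba-a1, and without both libraries of WT mouse 2 it was −0.047 for Hbb-bt. With single libraries left out it ranged from −0.40 to 0.63 for Hba-a1, from −0.0038 to 0.80 for Hba-a2, from −0.47 to 0.42 for Hbb-bs, from −0.32 to 0.65 for Hbb-bt and from −1.12 to −0.07 for Alas2. The block of the mouse added the call of Alas2 between tissues in WT and changed no other call of a member. DESeq2 (adjusted p = 0.0308) and the fit without a filter (adjusted p = 0.000107 by edgeR) added the same call. WT and KO mice share only a number: deviations of same-numbered libraries correlated at −0.0309 to 0.0736 in cerebellum and −0.0917 to 0.0811 in cortex, and with that number as a block 1 gene was called in each tissue, as without it. The KO to WT ratio of the summed chains was 0.714 in cerebellum and 0.711 in cortex as a percent of gene counts, close to the CPM values. Its limits are those of 3 mice per group, of unknown perfusion and of counts that omit reads shared by the gene copies.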

Other observations

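Ngb, the neuronal globin, had the largest difference of the genotype effect between the tissues among the genes of the lists used here. It had 1 to 3 counts in WT cerebellum, 9 to 44 in KO cerebellum, 75 to 85 in WT cortex and 79 to 93 in KO cortex. The difference of the log2 fold changes, cortex minus cerebellum, was −3.60 (SE 0.695, adjusted p = 0.167 in the edgeR quasi-likelihood fit, Benjamini-Hochberg adjusted), so it was not called, and it was singled out after its values were seen. The 12 cortical marker genes summed in cerebellum to 666 to 835 CPM in KO and 826 to 971 CPM in WT.

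Leading neutrophil granule genes were present at low counts in KO cerebellum, and the highest were in KO mouse 2, the KO mouse with the most haemoglobin there. S100a9 had 14, 59 and 23 counts in KO mice 1 to 3 against 9, 6 and 17 in WT mice. Ngp had 14, 45 and 24 counts against 2, 5 and 3, with a log2 fold change of 2.96 (SE 0.624, adjusted p = 0.203 by edgeR). In WT mouse 2, whose cerebellum had the most haemoglobin of all, S100a9 had 6 counts and Ngp 5.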
